A study of Mus musculus with 7 samples.

Results

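The genes described here encode the machinery that fills, docks, fuses and retrieves synaptic vesicles at the presynaptic terminal. They are 45 protein-coding mouse genes, found by their symbols in a table of 55416 genes, of which 21885 are listed as protein-coding. By role, 10 encode vesicle proteins and Rab3 GTPases, 3 encode vesicular glutamate transporters, 9 encode SNARE proteins and SNARE regulators, 7 encode calcium sensors, 12 encode active zone proteins and 4 encode endocytic proteins. The values below are RNA levels in prefrontal cortex (PFC) tissue, and no protein or release measurement was analysed here.

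A synaptic vesicle is filled with transmitter by a transporter in its membrane, held near the release site by synapsins and Rab3 proteins, and docked at the active zone by a scaffold of RIM, Munc13, Bassoon, Piccolo, ELKS and liprin-α proteins. SNARE proteins on the vesicle and on the plasma membrane then zip together, complexins clamp and promote the fusion, and synaptotagmins trigger it when calcium enters. Dynamin, endophilin, amphiphysin and synaptojanin retrieve the membrane afterwards. In the PFC most excitatory terminals carry the transporter VGLUT1.

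The RNA came from the PFC of female C57BL/6 wild-type mice, all of which had received recombinant adeno-associated virus (rAAV) in the PFC. Ctr mice (3 libraries) received the empty vector, Ref mice (2 libraries) a vector carrying the reference C allele of the human long noncoding RNA PAXIP1-AS1, and Alt mice (2 libraries) the same vector with the alternative G allele. Every construct also carried EGFP. The human synapsin promoter drove expression, which is active in neurons, so the transgene was a neuronal one in tissue that also holds glia and vessels, and the human gene was added to mice that have no homologous sequence. The transgene RNA itself was not analysed here, so the labels are not checked by it. The labels give neither an age nor the mouse behind each library, so p-values measure the spread between these libraries only. Ctr, Ref and Alt were compared to ask whether the C and G alleles differ in what they do to PFC gene expression.

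Libraries held 16655697 to 20750857 counts each. Markers of cortical excitatory neurons were abundant in all 7 libraries, at a summed level of 3259 to 4302 CPM (counts scaled to library size, normalized by edgeR's TMM method throughout), and the markers of choroid plexus and ependyma summed to 2.9 to 7.61 CPM. No marker gene of the 11 lists checked was at 0 in every library. Alt replicate 1 stood apart from the other 6 libraries. Levels of long genes were raised in it relative to short ones, by 0.19 on the log2 scale for each doubling of gene length, against slopes between -0.08 and 0.04 in the others. Gene length throughout is the length in bases deposited with the counts, not the span on the chromosome. For Syn3 it is 12282, while the gene spans 85890989 to 86334760. It also differed from Alt replicate 2 by a chi-square of 56.3 per degree of freedom over genes, where replicate pairs in Ctr and Ref gave 18.2 to 24.4. For most results that rest on Alt, the count, median or log2 fold change without it is therefore given as well. In bulk tissue, fewer cells of a type and less RNA per cell cannot be told apart.

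Promoter sequences of 37 of the 45 genes were available from RefSeq (GRCm38.p6), as windows of 300 bases that run from 250 bases before the transcription start to 50 after it. These 4 are shown because Syn1 is the mouse counterpart of the gene whose human promoter drove the vectors, Pclo and Cplx2 had higher values in Alt than in Ctr, and Stx1a had lower values. Capitals mark the motifs searched on both strands, which were the GC box GGGCGG, the cyclic AMP response element TGACGTCA and the TATA motif TATAAA. None of these motifs overlaps another in the windows shown.
Syn1, chrX:20920869-20921168, minus strand: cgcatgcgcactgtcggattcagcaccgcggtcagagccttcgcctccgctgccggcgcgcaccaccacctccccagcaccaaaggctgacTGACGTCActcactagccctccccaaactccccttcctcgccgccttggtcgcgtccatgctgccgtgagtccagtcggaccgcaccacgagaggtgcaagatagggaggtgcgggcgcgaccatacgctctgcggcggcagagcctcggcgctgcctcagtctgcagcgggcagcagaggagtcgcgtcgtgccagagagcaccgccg
Pclo, chr5:14514668-14514967, plus strand: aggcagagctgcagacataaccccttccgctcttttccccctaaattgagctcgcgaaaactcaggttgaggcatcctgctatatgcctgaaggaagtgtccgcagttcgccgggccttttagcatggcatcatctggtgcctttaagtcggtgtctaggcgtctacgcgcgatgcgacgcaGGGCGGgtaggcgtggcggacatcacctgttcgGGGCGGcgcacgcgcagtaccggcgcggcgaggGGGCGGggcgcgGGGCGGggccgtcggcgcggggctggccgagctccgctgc
Cplx2, chr13:54302306-54302605, plus strand: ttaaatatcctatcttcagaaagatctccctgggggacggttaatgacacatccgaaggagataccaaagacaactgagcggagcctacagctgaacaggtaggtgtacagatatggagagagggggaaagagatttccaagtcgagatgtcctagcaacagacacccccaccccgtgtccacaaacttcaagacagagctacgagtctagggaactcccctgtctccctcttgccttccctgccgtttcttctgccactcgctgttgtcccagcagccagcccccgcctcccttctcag
Stx1a, chr5:135023232-135023531, plus strand: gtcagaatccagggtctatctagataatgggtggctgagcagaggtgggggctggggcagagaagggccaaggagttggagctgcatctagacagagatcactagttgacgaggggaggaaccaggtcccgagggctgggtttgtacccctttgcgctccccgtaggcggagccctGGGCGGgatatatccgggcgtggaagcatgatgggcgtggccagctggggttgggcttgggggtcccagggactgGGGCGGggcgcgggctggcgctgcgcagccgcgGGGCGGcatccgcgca

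The Syn1 window holds 1 cyclic AMP response element, the Pclo window 4 GC boxes, the Stx1a window 3 GC boxes, and the Cplx2 window none of the 3 motifs. A GC box was found in 28 of the 37 genes (75.7%), compared with 38.2% of all 26994 genes with a promoter. Some genes have several windows, and counted by window it was in 29 of 47, compared with 35.6% of all 32817 windows of the same length. The cyclic AMP response element was found in Syn1 and Sh3gl2 (5.41% of the 37 genes, against 2.03% of all genes, and 2 of the 47 windows, against 1.79% of all windows). TATAAA was found in Rab3b and Sv2b (5.41%, against 15.7% of all genes, and 3 of the 47 windows, against 13.6%). A motif match describes the letters of the window only.

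All 45 genes had enough counts to be tested, together with 17254 genes in all, 14492 of them protein-coding. In Ctr mice, 35 of the 45 lay above the median level of tested protein-coding genes, which was 4.16 FPKM (counts scaled by gene length and by library size, the scale on which genes are compared with each other here), and 20 were among the top 5%. The median over the 45 genes was 34.9 FPKM.

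**Figure D1:**
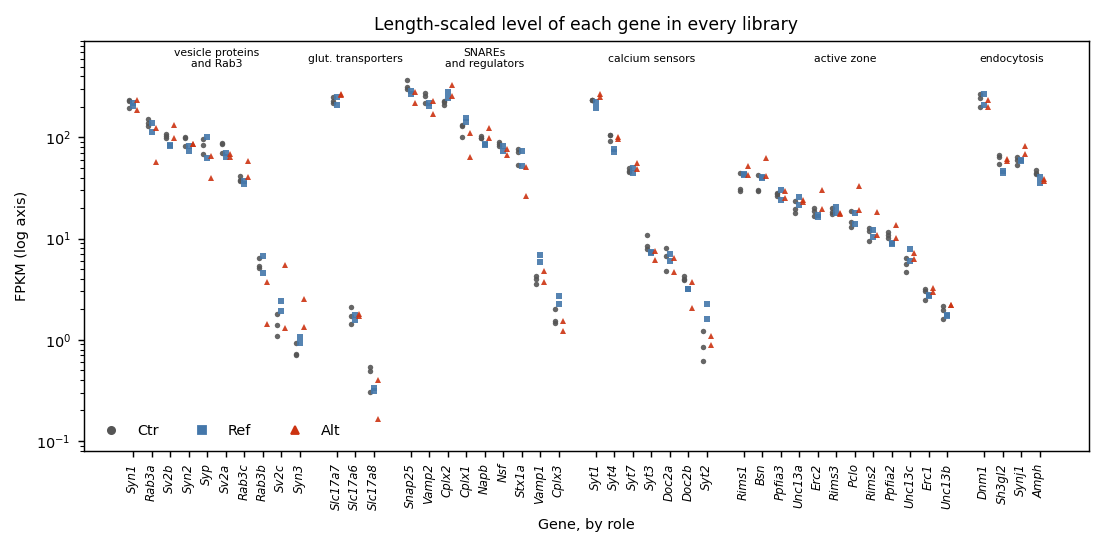
FPKM on a log axis of each of the 45 genes in the 7 libraries, with genes ordered by their Ctr mean within each role and 1 point per library (circles Ctr, squares Ref, triangles Alt). Levels span a wide range within the roles, such as Slc17a7 at 232 FPKM against 0.447 for Slc17a8 in Ctr mice, and the 2 Alt points lie farthest apart for Sv2c, at 5.48 and 1.31 FPKM.

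Within several families the levels in Ctr mice differed widely between paralogs. Among the glutamate transporters, Slc17a7 (VGLUT1) stood at 232 ± 18.1 FPKM (SD, n = 3), Slc17a6 (VGLUT2) at 1.75 ± 0.327 and Slc17a8 (VGLUT3) at 0.447 ± 0.123, with no overlap between them. Snap25, the plasma membrane SNARE, was the most abundant of all 45 at 328 ± 37.1 FPKM, followed by the vesicle SNARE gene Vamp2 at 248 ± 26.8. Vamp1, the paralog of Vamp2, reached 3.94 ± 0.373 FPKM. Complexin RNA was mostly Cplx2 (219.9 ± 12.5 FPKM) and Cplx1 (121 ± 17.6), with Cplx3 at 1.67 ± 0.313. Syn1 (219.9 ± 21.7 FPKM) exceeded Syn2 (93.2 ± 10.3) and Syn3 (0.786 ± 0.128). Syt1, the fast calcium sensor, led its group at 232 ± 1.01 FPKM, while Syt2, which takes the same role in other brain regions, was at 0.895 ± 0.309. At the active zone the top level was lower than in the other roles, with Rims1 (34.9 ± 8.33 FPKM) and Bsn (34.3 ± 7.48) overlapping there, and Unc13b lowest at 1.91 ± 0.282. Dnm1, the neuronal dynamin, led the endocytic genes at 237 ± 33.6 FPKM. Over all 45 genes the rarest was Slc17a8.

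In Alt mice compared with Ctr mice, 10 of the 45 genes were higher and 3 were lower at an unadjusted p of 0.05 by edgeR's quasi-likelihood test, and 32 were not called. The share called higher was 22.2% beside 9.45% of all genes tested, and the share called lower 6.67% beside 10.3%. The higher genes were Syn3, Sv2c, Rab3c, Slc17a7, Cplx2, Rims1, Bsn, Pclo, Erc2 and Synj1, and the lower ones were Rab3b, Syp and Stx1a. None passed an adjusted p of 0.05 in edgeR, for which the background is 0.0% of all genes tested, and the smallest adjusted p among the 45 was 0.12 (Syn3; Benjamini-Hochberg over all genes). DESeq2, run as an alternative, called 7 at that threshold, all higher (Syn3, Sv2c, Cplx2, Rims1, Bsn, Pclo and Synj1). Of the 12905 genes given an adjusted p by DESeq2, 8.5% passed in either direction and 5.03% were higher. Without the low-count filter edgeR called 10, beside 5.52% of all genes. The median log2 fold change (log2FC) of the 45 genes was 0.13, beside -0.03 over all genes tested, and it was 0.07 without Alt replicate 1.

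The count of called genes depended on single libraries. Leaving out a library of Alt or Ref leaves that group with 1 library, which is then assumed to vary like the libraries of the other groups, so such a fit is a weak check on a call. Without Alt replicate 1 it was 2 (Syn3 and Cplx2, both higher), beside 3.68% of all genes called higher and 4.46% lower. Without Alt replicate 2 it was 26, beside 33.2% of all genes, and without Ctr replicate 1 it was 8, beside 11.8%. Leaving out Alt replicate 2 also raised the count at an adjusted p of 0.05 in edgeR from 0 to 17, beside 18.3% of all genes. On the CPM scale, libraries of Alt and Ctr did not overlap for 20 of the 45 genes. In 17 of these (37.8%, beside 16.8% of all genes) both Alt libraries were above all Ctr libraries, and in 3 (Rab3b, Nsf and Amph; 6.67%, beside 18.1%) they were below.

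**Figure D2:**
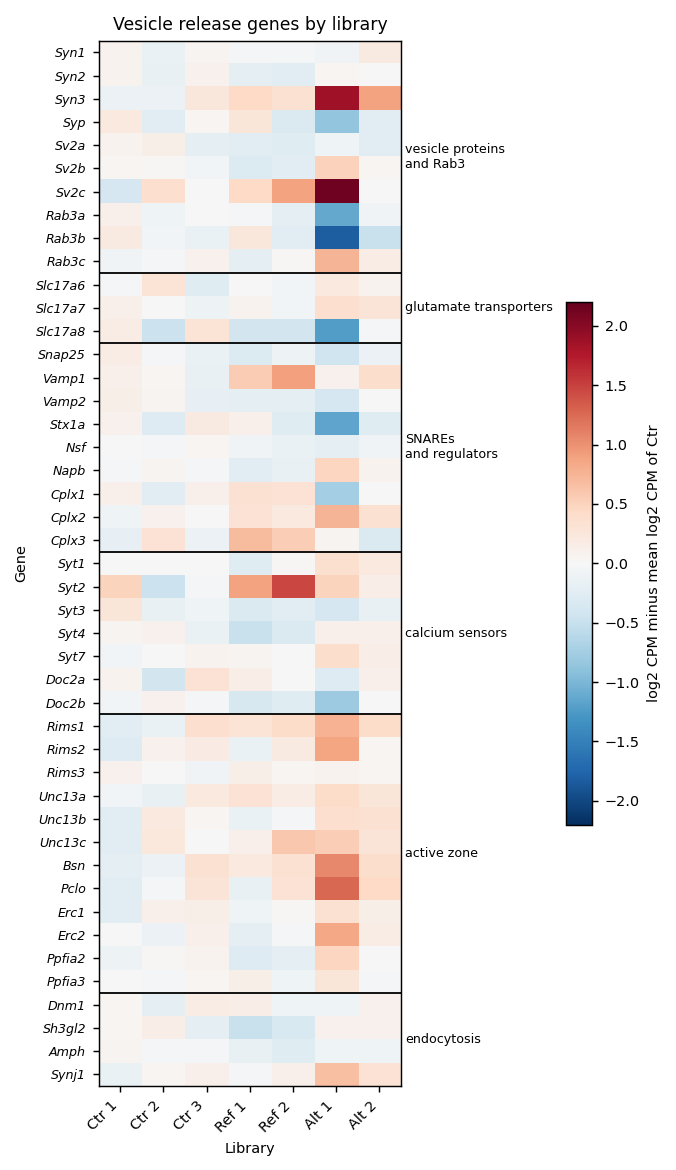
Log2 CPM of each of the 45 genes in each of the 7 libraries minus the gene's mean log2 CPM in Ctr, as a colour scale from blue (below Ctr) to red (above Ctr), with genes in rows by role. The Alt 1 column holds the strongest colours, in both directions, and its median over the 45 genes was 0.21 against 0.08 in Alt 2 and -0.04 to 0.04 in the other 5 libraries.

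The active zone genes, which build the scaffold at the release site, had values in one direction, although 8 of the 12 were not called. All 12 had a positive log2FC in Alt against Ctr (47.9% of all genes tested did), with a median of 0.37, and Rims1, Bsn, Pclo and Erc2 were called higher (33.3%, beside 9.45% of all genes). Their median was 0.21 without Alt replicate 1 and none of the 12 was called. With the gene length correction described below it was 0.10, and Bsn, Pclo and Erc2 were no longer called. Bsn encodes Bassoon, a giant scaffold protein (chromosome 9, 107973221 to 108067583 as the table lists it). Its CPM was 451, 477 and 659 in Ctr, 606.5 and 662 in Ref, and 1089.6 and 685 in Alt. Alt replicate 1 was far above all others, while Alt replicate 2 exceeded the highest Ctr library by little (log2FC 0.75, SE 0.21, edgeR adjusted p = 0.125). In FPKM Alt replicate 2 (41.3) lay below Ctr replicate 3 (42.9). Without Alt replicate 1 the log2FC of Bsn was 0.37. Pclo encodes Piccolo, the partner scaffold of Bassoon, and had 281, 319.8 and 404 CPM in Ctr, 295 and 411 in Ref, and 795 and 449 in Alt. Both Alt libraries were above Ctr and Ref (log2FC against Ctr 0.89, SE 0.24, edgeR adjusted p = 0.122; 0.42 without Alt replicate 1). The ratio of Piccolo to Bassoon RNA stayed within a narrow span, at a log2 FPKM ratio of -1.53 to -0.95 over the 7 libraries.

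Rims1 encodes RIM1, which tethers calcium channels and vesicles. It stood at 231, 244 and 348 CPM in Ctr, 331 and 359 in Ref, and 459 and 357 in Alt. Ref replicate 2 reached the lower Alt value, while Ref replicate 1 lay below it and below Ctr replicate 3 (log2FC Alt against Ctr 0.57, SE 0.19, edgeR adjusted p = 0.152; 0.38 without Alt replicate 1). In FPKM Alt replicate 2 (42.3) lay below Ctr replicate 3 (44.5). The call of Rims1 was lost without Ctr replicate 1 or Ctr replicate 2 as well. Erc2 encodes the ELKS family protein CAST, and its CPM was 176, 159 and 189 in Ctr, 152 and 170.2 in Ref, and 315 and 196 in Alt. Here the Alt libraries were the 2 highest of the 7 (log2FC against Ctr 0.55, SE 0.19, edgeR adjusted p = 0.161), and the log2FC fell to 0.17 without Alt replicate 1. The call of Erc2 was also lost without Ctr replicate 2. The other 8 active zone genes were not called. They encode further RIM proteins (Rims2 and Rims3), the Munc13 priming factors (Unc13a, Unc13b and Unc13c), ELKS (Erc1) and liprin-α (Ppfia2 and Ppfia3), and had log2FC values between 0.06 (Rims3) and 0.50 (Rims2).

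Among the vesicle proteins and Rab3 genes the differences went both ways, with 3 higher, 2 lower and 5 not called (30.0% and 20.0%, beside 9.45% and 10.3% of all genes). Syn3 encodes synapsin III, the least abundant synapsin in adult brain, and lies on chromosome 10 at 85890989 to 86334760 in the table. It had 8.49, 8.52 and 11.1 CPM in Ctr, 12.5 and 11.7 in Ref, and 33.9 and 17.2 in Alt. The groups did not overlap in any of the 3 comparisons, and both Alt libraries stood above all others (log2FC Alt against Ctr 1.45, SE 0.28, edgeR adjusted p = 0.12). Of the 13 called genes Syn3 had the largest log2FC, and it stayed at 0.88 without Alt replicate 1. Timp3, a metalloproteinase inhibitor gene on the opposite strand, shares 14.1% of the exon bases of Syn3 in GENCODE M21 and held 14061 counts over the 7 libraries against 1898 for Syn3. Timp3 stood at 74.3, 88.5 and 89.1 CPM in Ctr, 111 and 125 in Ref, and 133 and 117 in Alt (log2FC Alt against Ctr 0.57, called higher). Whether reads were assigned by strand is not given in the sources used here, so reads of the 2 genes may not be fully separated.

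Sv2c encodes a rare member of the SV2 vesicle glycoprotein family. Its CPM was 10.1, 17 and 13.1 in Ctr, 17.7 and 24 in Ref, and 57.6 and 13.2 in Alt. Only Alt replicate 1 was high, and Alt replicate 2 lay within Ctr (log2FC 1.40, SE 0.45, edgeR adjusted p = 0.143; -0.01 without Alt replicate 1). Rab3b, a Rab3 paralog of low level, had 21.8, 18.4 and 17.2 CPM in Ctr, 22.6 and 16.3 in Ref, and 5.4 and 13.6 in Alt. Both Alt libraries were below all others (log2FC against Ctr -1.01, SE 0.34, edgeR adjusted p = 0.153; -0.50 without Alt replicate 1). Rab3c, which shares its role in priming with Rab3a, was called higher (log2FC 0.48, 0.16 without Alt replicate 1), while Rab3a itself had a log2FC of -0.51 and was not called. The log2 FPKM ratio of Rab3c to Rab3a reached 0.03 in Alt replicate 1, whereas the other 6 libraries lay between -2.04 and -1.61. Syp, the vesicle marker synaptophysin, was called lower with overlapping groups (log2FC -0.53, -0.24 without Alt replicate 1), a call that was lost without Alt replicate 1, Ctr replicate 1 or Ctr replicate 3. The calls of Rab3c were lost without Alt replicate 1, Ctr replicate 1 or Ctr replicate 2. Syn1, the most abundant synapsin, stood at 744, 633 and 733 CPM in Ctr, 686 and 681 in Ref, and 664 and 803 in Alt, with overlapping groups and a log2FC of 0.06 (SE 0.15) that turned negative without Ctr replicate 2 or Alt replicate 2. The other uncalled genes of this role were Syn2 (0.01), Sv2a (-0.18) and Sv2b (0.29).

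Of the glutamate transporters, Slc17a7 was called higher. Its CPM was 1309, 1207 and 1127 in Ctr, 1285 and 1159.6 in Ref, and 1559.6 and 1468 in Alt. Both Alt libraries were above all Ctr and Ref libraries (log2FC Alt against Ctr 0.32, SE 0.14, edgeR adjusted p = 0.238). The log2FC changed little without Alt replicate 1 (0.28), although the call was lost there and without each of 5 other libraries, Alt replicate 2 being the exception. Slc17a6 (0.13, SE 0.26) and Slc17a8 (-0.54, SE 0.66) were not called, the latter on 13 to 53 counts per library.

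The SNARE genes and their regulators had 1 gene higher, 1 lower and 7 not called (11.1% in each direction, near the 9.45% and 10.3% of all genes). Cplx2 encodes complexin 2, the main complexin of cortical excitatory neurons (chromosome 13, 54519162 to 54531730 in the table). It had 979, 1119 and 1056 CPM in Ctr, 1312 and 1225 in Ref, and 1768 and 1328 in Alt. The 3 groups did not overlap, with Ctr lowest and Alt highest (log2FC Alt against Ctr 0.56, SE 0.16, edgeR adjusted p = 0.124; 0.34 without Alt replicate 1). Along with Syn3 it was called whichever library was left out, within the limit given above for the fits that leave Alt with 1 library. Stx1a, the plasma membrane syntaxin whose promoter is shown above, had a log2FC of -0.66 (SE 0.25) with Alt replicate 1 at 76.3 CPM and Alt replicate 2 at 142, inside the Ctr span of 139.6 to 195. That call was lost without Alt replicate 1 (-0.28), Ctr replicate 1 or Ctr replicate 3. Snap25 stood at 2415.5, 2119 and 1951 CPM in Ctr, 1748.5 and 1991 in Ref, and 1595 and 1965 in Alt, with overlapping groups and a log2FC of -0.28 (SE 0.16) that was not called. The other 6 uncalled genes, which include Vamp2 (-0.18) and the SNARE-disassembling ATPase gene Nsf (-0.13), had log2FC values between -0.34 (Cplx1) and 0.29 (Napb).

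No calcium sensor was called in Alt against Ctr, and the 7 log2FC values lay between -0.35 (Doc2b) and 0.28 (Syt1). Syt1 had 1864, 1898 and 1876 CPM in Ctr, 1565 and 1913 in Ref, and 2398 and 2170.4 in Alt, so that both Alt libraries were above the rest. Among the endocytic genes, Synj1, which encodes the lipid phosphatase synaptojanin 1 that uncoats vesicles, was called higher. Its CPM was 419, 473 and 496 in Ctr, 455 and 498 in Ref, and 726 and 577 in Alt (log2FC against Ctr 0.49, SE 0.16, edgeR adjusted p = 0.137; 0.32 without Alt replicate 1). Both Alt libraries exceeded every Ctr and Ref library. Dnm1 had 1237, 1035 and 1347 CPM in Ctr, 1332 and 1129 in Ref, and 1126.5 and 1275 in Alt, with overlapping groups and a log2FC of -0.01 (SE 0.16).

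**Figure D3:**
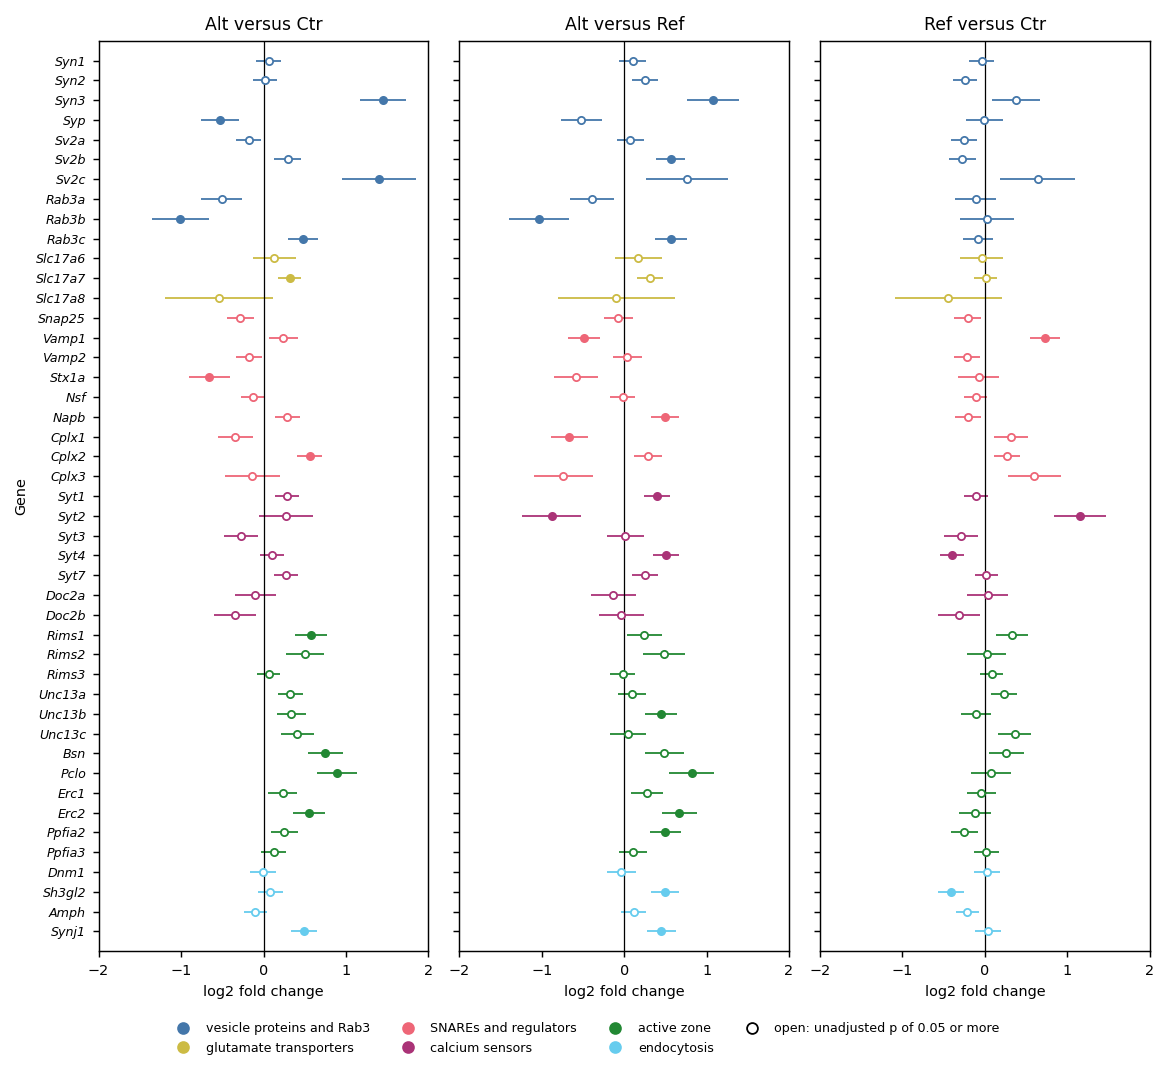
Log2 fold change of each of the 45 genes with its standard error (bars) in Alt versus Ctr, Alt versus Ref and Ref versus Ctr, coloured by role, with filled points for an unadjusted edgeR p below 0.05. The active zone genes (green) all lie right of 0 in Alt versus Ctr, and 13, 16 and 4 points are filled in the 3 panels from left to right.

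The direction of the difference between Alt and Ctr followed gene length, a dependence that was strongest in Alt replicate 1. Over all genes its slope per doubling of length was 0.19, against 0.04 in Alt replicate 2 and -0.08 to -0.005 in Ctr. The correlations and the counts by length below were not computed without Alt replicate 1. The 45 genes had a median length of 7051 bases, compared with 4051 over all genes tested, and ranged from 2189 to 22746. Across the 45 genes, log2FC and length had a Spearman correlation of 0.77 (0.33 across all genes tested), where every point shares the same 5 libraries. Of the 23 genes at or above the median length, 22 had a positive log2FC and 8 were called higher. Of the 22 shorter genes, 7 had a positive log2FC, 2 were called higher and 3 lower. Over all genes tested, of any length, 47.9% had a positive log2FC, 9.45% were called higher and 10.3% lower. Shares for all genes of similar length were not counted. The 10 higher genes were 4928 to 22457 bases long and the 3 lower genes 2666 to 5211. After a correction that fitted the dependence on length over all genes in each library, the correlation across the 45 genes was 0.35, so that part of the dependence remained among them. In that fit 6 genes were called higher and 5 lower (beside 7.41% and 8.99% of all genes), and the median log2FC was -0.004 in place of 0.13. Of the 12 active zone genes only Rims1 was still called. The log2FC of Pclo fell to 0.29 and that of Bsn to 0.27, neither called, whereas Syn3 (1.07), Sv2c (1.11), Cplx2 (0.57), Slc17a7 (0.29), Synj1 (0.32), Rab3b (-0.89), Stx1a (-0.46) and Syp (-0.54) were called in the same direction. Snap25 (-0.39) and Nsf (-0.31) were called lower only after the correction.

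**Figure D4:**
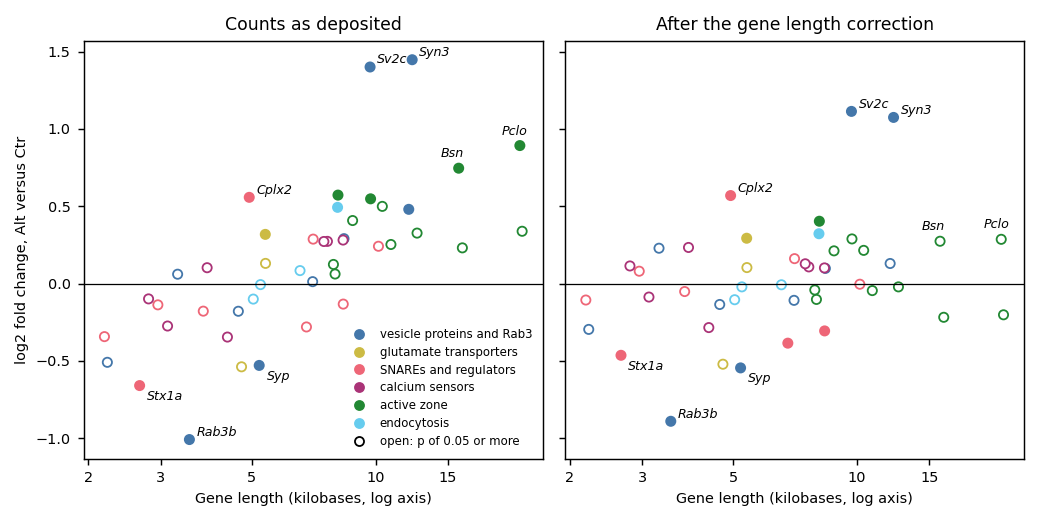
Log2 fold change of Alt versus Ctr for each of the 45 genes against gene length in kilobases (log axis), from the counts as deposited (left) and after the gene length correction (right), coloured by role and filled where the unadjusted edgeR p was below 0.05. On the left the values climb with length from Rab3b and Stx1a to Pclo and Syn3, and on the right Pclo and Bsn lie at 0.29 and 0.27 while Syn3, Sv2c, Cplx2 and Rab3b keep most of their distance from 0.

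In Alt mice compared with Ref mice, the comparison of the G with the C allele, 12 of the 45 genes were higher and 4 were lower at an unadjusted p of 0.05. That is 26.7% beside 6.71% of all genes tested for the higher genes, and 8.89% beside 8.83% for the lower ones. The higher genes were Syn3, Sv2b, Rab3c, Napb, Syt1, Syt4, Unc13b, Pclo, Erc2, Ppfia2, Sh3gl2 and Synj1, and the lower ones were Rab3b, Vamp1, Cplx1 and Syt2. None of the 45 passed an adjusted p of 0.05 in edgeR (0.0058% of all genes did), and the smallest adjusted p among them was 0.236. DESeq2 called 6 at that threshold, all higher (Syn3, Sv2b, Syt4, Pclo, Erc2 and Sh3gl2). Of the 11233 genes given an adjusted p by DESeq2 here, 3.82% passed in either direction and 2.16% were higher. EdgeR without the low-count filter called 5, beside 3.16% of all genes. Libraries did not overlap for 20 genes that were higher in Alt (44.4%, beside 21.6%) and 6 that were lower (13.3%, beside 26.1%). The median log2FC was 0.11, beside -0.04 over all genes tested, and 0.12 without Alt replicate 1. Alt libraries are shared with the comparison against Ctr. Without Alt replicate 1 the number called was 4, with Syt4 and Sh3gl2 higher (beside 2.35%) and Syt2 and Cplx3 lower (beside 4.4%). Without Ref replicate 1 it was 5, beside 4.19% of all genes, and without Alt replicate 2 there were 16 at an adjusted p of 0.05 in edgeR, beside 14.4%.

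Several of these differences came from low values in Ref as much as from high values in Alt. Syt4, a synaptotagmin that does not bind calcium with its first C2 domain, had 391, 399.7 and 341 CPM in Ctr, 268 and 303 in Ref, and 405 and 405 in Alt. The Ref libraries were below all 5 others, and both Alt libraries were just above Ctr (log2FC Alt against Ref 0.51, SE 0.16, edgeR adjusted p = 0.236; 0.52 without Alt replicate 1). Sh3gl2 encodes endophilin A1, which shapes the membrane for retrieval, and had 405, 435 and 341 CPM in Ctr, 279.8 and 312 in Ref, and 417 and 418 in Alt. Its Ref libraries were again the lowest, and its Alt libraries lay within Ctr (log2FC Alt against Ref 0.50, SE 0.17, edgeR adjusted p = 0.237; 0.51 without Alt replicate 1). Both calls were kept without Alt replicate 1 and lost without Ref replicate 1. Sv2b, an abundant vesicle glycoprotein gene of the cortex, stood at 865, 852.5 and 802 CPM in Ctr, 678.5 and 712 in Ref, and 1193 and 861 in Alt. Ref was lowest and Alt replicate 1 highest, while Alt replicate 2 lay within Ctr (log2FC Alt against Ref 0.56, SE 0.18, edgeR adjusted p = 0.236; 0.32 without Alt replicate 1).

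Napb encodes β-SNAP, which helps NSF to take SNARE complexes apart. Its CPM was 666, 711 and 667 in Ctr, 572 and 609.5 in Ref, and 947 and 717 in Alt. The Ref libraries were below and the Alt libraries above the Ctr span (log2FC Alt against Ref 0.49, SE 0.17, edgeR adjusted p = 0.241), and the call was lost without Alt replicate 1 (0.29) or Ref replicate 1. For Syn3 the log2FC between Alt and Ref was 1.07 (SE 0.32, edgeR adjusted p = 0.236), for Pclo 0.82 (SE 0.27, edgeR adjusted p = 0.236), for Erc2 0.67 (SE 0.21, edgeR adjusted p = 0.236) and for Rab3b -1.03 (SE 0.37, edgeR adjusted p = 0.244). Without Alt replicate 1 these 4 values were 0.52, 0.36, 0.30 and -0.51, and none was called. Pclo, Erc2 and Rab3b also lost the call without Ref replicate 1. Of the remaining higher genes, Rab3c, Ppfia2, Syt1 and Synj1 likewise lost the call without either of these libraries, Syt1 also without Ctr replicate 1, and Unc13b (0.44, also 0.44 without Alt replicate 1) lost it without any of 5 libraries. The exons of Ppfia2 share 22.3% of their bases with Acss3 on the opposite strand, which held 89 counts against 15484 for Ppfia2.

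Cplx1, the complexin of many inhibitory and subcortical neurons, was lower in Alt than in Ref. It had 276, 216 and 276 CPM in Ctr, 322 and 317.5 in Ref, and 151 and 253 in Alt, so that Ref stood above all other libraries and Alt replicate 1 was the lowest (log2FC Alt against Ref -0.66, SE 0.23, edgeR adjusted p = 0.241; -0.33 and not called without Alt replicate 1). The log2 FPKM ratio of Cplx2 to Cplx1 reached 2.38 in Alt replicate 1, whereas the other 6 libraries lay between 0.66 and 1.22. Vamp1 (log2FC -0.49, -0.33 without Alt replicate 1) and Syt2 (-0.88, -1.04 without it) were lower in Alt than in Ref, from high values in Ref that are given below. The call of Vamp1 was lost without Alt replicate 1 or Ref replicate 2, and that of Syt2 without Alt replicate 2 or Ref replicate 2. With the gene length correction there were 10 higher and 4 lower genes (beside 7.43% and 5.58%) and a median log2FC of 0.16. The median of the 12 active zone genes was 0.36 before the correction and 0.04 after it, and 0.09 without Alt replicate 1, where none of the 12 was called. Syn1, Slc17a7 and Cplx2 were called higher after it. Pclo (0.30), Rab3c, Ppfia2, Syt1 and Unc13b were no longer called after it, and Unc13b turned from 0.44 to -0.02.

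In Ref mice compared with Ctr mice, the test of the C allele against the empty vector, 4 of the 45 genes were called. Vamp1 and Syt2 were higher (4.44%, beside 2.19% of all genes tested) and Syt4 and Sh3gl2 were lower (4.44%, beside 0.945%). None had an adjusted p below 1 in edgeR, where 0.0% of all genes passed 0.05. DESeq2 called none of the 45 at that threshold (0.0551% of the 10898 genes it gave an adjusted p). Library values did not overlap for 7 genes that were higher (15.6%, beside 12.4%) and 12 that were lower (26.7%, beside 10.5%). The median log2FC was -0.04, beside 0.01 over all genes tested. The number called was 2 without Ctr replicate 1 (beside 2.06% of all genes), 8 without Alt replicate 1 (beside 5.51%) and 8 without Alt replicate 2 (beside 5.52%). With the gene length correction it was 9, of which 2 were higher and 7 lower (beside 1.92% and 3.23%).

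Vamp1 encodes synaptobrevin 1, the vesicle SNARE that dominates in brainstem and spinal cord (chromosome 6, 125192514 to 125222927 in the table). It stood at 41.9, 40.1 and 34.7 CPM in Ctr, 56.7 and 72.1 in Ref, and 41.2 and 50.7 in Alt. Both Ref libraries were above all others (log2FC Ref against Ctr 0.73, SE 0.18), and the call was kept whichever library was left out, although a fit with 1 Ref library takes the spread from the other groups. Its log2 FPKM ratio to Vamp2 was -5.99 to -5.95 in Ctr, -5.22 and -4.87 in Ref and -5.52 and -5.59 in Alt, so that the 3 groups did not overlap. Syt2, a fast calcium sensor, had 9, 4.6 and 6.3 CPM in Ctr, 11.8 and 17.7 in Ref, and 8.9 and 7.1 in Alt. Ref was again highest (log2FC Ref against Ctr 1.15, SE 0.32), and the call was lost without Ref replicate 2. Syt4 (log2FC -0.40, SE 0.15) and Sh3gl2 (-0.41, SE 0.15) were lower in Ref, as their values above show, and both calls were lost without Ctr replicate 1, Ctr replicate 2 or Ref replicate 1.

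The next genes by p in this comparison were not called. Cplx3, a complexin of ribbon synapses and of deep cortical neurons, had 4.2, 5.9 and 4.3 CPM in Ctr, 7.7 and 6.9 in Ref, and 4.9 and 3.8 in Alt (log2FC Ref against Ctr 0.60, SE 0.32). Unc13c encodes Munc13-3 and had 39.4, 55.2 and 47.2 CPM in Ctr, 50.7 and 70.6 in Ref, and 68.2 and 57.3 in Alt (0.36, SE 0.20). Cplx2 (0.27, SE 0.16) and Rims1 (0.33, SE 0.19) had positive values too. The Ref and Ctr libraries overlapped for Unc13c and Rims1 but not for Cplx3 and Cplx2.

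**Figure D5:**
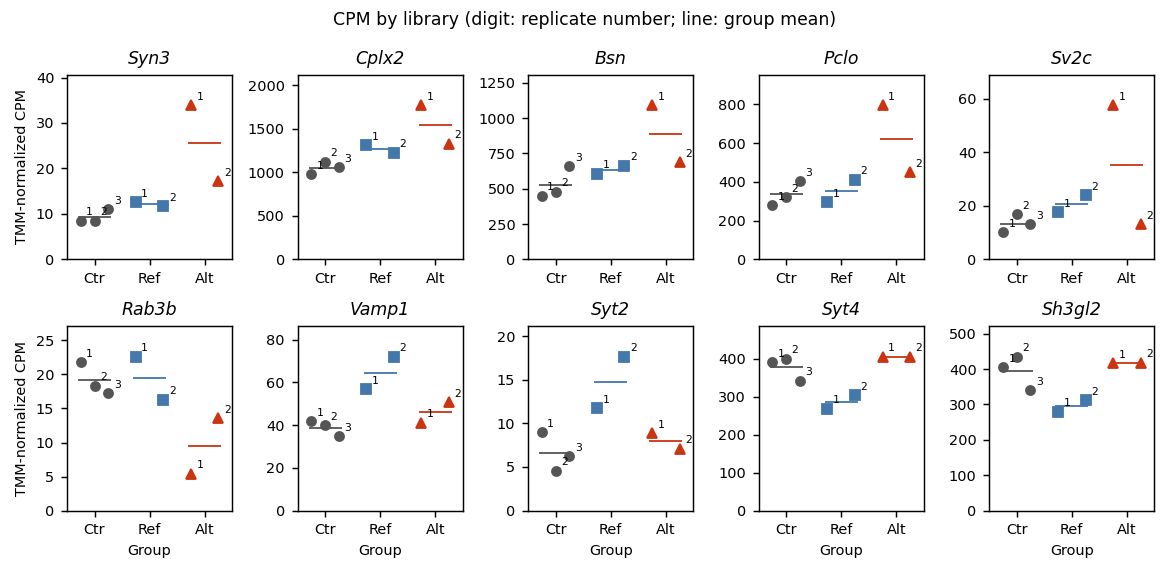
TMM-normalized CPM by library of 10 genes that carry the 3 comparisons (circles Ctr, squares Ref, triangles Alt; digits give the replicate number and lines the group mean). Syn3 and Cplx2 are higher in both Alt libraries, Sv2c in Alt replicate 1 alone, Vamp1 and Syt2 are highest in Ref, and Syt4 and Sh3gl2 are lowest in Ref.

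A trend over the order Ctr, Ref and Alt, scored 0, 1 and 2 in edgeR, called 9 of the 45 genes higher and 2 lower at an unadjusted p of 0.05 (beside 8.85% and 7.89% of all genes). They are the genes called in Alt against Ctr other than Slc17a7 and Syp. The smallest adjusted p in edgeR was 0.166 and none passed 0.05 (0.0% of all genes). DESeq2 called 5 (Syn3, Sv2c, Cplx2, Bsn and Pclo), beside 5.31% of the 11232 genes it gave an adjusted p. Without the low-count filter edgeR called 6, beside 4.22% of the 26895 genes in that fit. The slopes per step were 0.71 for Syn3 (SE 0.14, edgeR adjusted p = 0.166) and 0.28 for Cplx2 (SE 0.08, edgeR adjusted p = 0.168). For both of these genes the groups stood in the order Ctr, Ref, Alt with no overlap in CPM. In FPKM Cplx2 had 258.7 in Alt replicate 2, below 279 in Ref replicate 1. The slopes were 0.43 and 0.19 without Alt replicate 1. The number called was 3 without Alt replicate 1 (beside 7.14% of all genes), 5 without Ctr replicate 1 (beside 9.73%) and 17 without Alt replicate 2 (beside 20.0%).

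Levels of cell type markers moved between the groups beside these genes. The 6 oligodendrocyte markers summed to 2207 to 3071 CPM in Ctr, 3716 to 4598 in Ref and 2136 to 2628 in Alt, and 5 of the 6 were called higher in Ref against Ctr and 5 lower in Alt against Ref (6 of 6 without Alt replicate 1 in both). The Ref values are high in the same libraries as those of Vamp1 and Syt2. The 5 inhibitory neuron markers summed to 252 to 327 CPM in Ctr, 230.3 to 247 in Ref and 219 to 224 in Alt, and 3 of the 5 were called lower in Alt against Ctr (1 of 5 without Alt replicate 1). With the gene length correction 2 of the 5 were called lower. Among them Pvalb had 5.71, 5.32 and 4.6 CPM in Ctr, 5.85 and 5.84 in Ref, and 2.21 and 3.57 in Alt. Its Alt values, from 34 and 64 counts, lay below all other libraries. Gad2 was the 1 marker of the 5 with a positive log2FC, with means of 73.4 CPM in Ctr and 81.8 in Alt. The 5 endothelial markers summed to 208 to 280.04 CPM in Ctr, 301 to 352 in Ref and 359 to 395 in Alt, with 2 of 5 called higher in Alt against Ctr (4 of 5 without Alt replicate 1). The 5 general neuron markers summed to 2324 to 2710.5 CPM in Ctr, 2496 to 2853 in Ref and 2777 to 3495 in Alt, highest in Alt replicate 1. Most of that sum is Map2, and 4 of the 5 had a negative log2FC in Alt against Ctr (median -0.16, with 1 called higher and 1 lower). Astrocyte and microglial markers summed to 1343 to 1775 and 292 to 352 CPM over all 7 libraries. Cortical excitatory markers summed to 3259 to 3887 CPM in Ctr, 3863 to 4050.4 in Ref and 4242 to 4302 in Alt. Most of that sum came from 1 kinase gene, and 3 of the 5 had a negative log2FC in Alt against Ctr (median -0.08, with 1 called higher and 1 lower). Thalamic markers summed to 87.7 to 106 CPM in Ctr, 102 to 125 in Ref and 136 to 168 in Alt, mostly Rora, with 2 of the 4 tested negative in Alt against Ctr (median 0.06). Striatal markers summed to 65.9 to 118 over all libraries, and those of olfactory and hippocampal granule neurons summed to 9.53 to 24.4. The part of these shifts in the vesicle gene results was not tested.

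Other genes of the vesicle cycle were counted in the same fits, from a list of 79 of which 77 were tested. In Alt against Ctr 13 were higher and 15 lower (16.9% and 19.5%, beside 9.45% and 10.3% of all genes), with a median log2FC of 0.08. The counts without Alt replicate 1 were 3 and 3 (beside 3.68% and 4.46% of all genes, so about the background), with a median of -0.004, and with the length correction they were 6 and 13 (beside 7.41% and 8.99%). The 3 with the smallest p were Mycbp2 (0.97, 0.45 without Alt replicate 1), a presynaptic ubiquitin ligase gene, Syt5 (-0.86, -0.58 without it), a synaptotagmin gene, and Cask (0.68, 0.40 without it), which encodes an active zone scaffold kinase. In Alt against Ref 15 were higher and 9 lower (19.5% and 11.7%, beside 6.71% and 8.83% of all genes), those with the smallest p being Cltb (-0.74, -0.62 without Alt replicate 1), a clathrin light chain gene, Stx4a (-1.09, -0.58 without it), a plasma membrane syntaxin gene, and Cask (0.63, 0.36 without it). These counts were 1 and 3 without Alt replicate 1, no higher a share than the 2.35% and 4.4% of all genes, and with the length correction 10 and 4 (beside 7.43% and 5.58%). In Ref against Ctr 2 were higher, which were Ston2 (0.54) and Dnm2 (0.45), and 1 was lower, which was Synpr (-0.43; 2.6% and 1.3%, beside 2.19% and 0.945% of all genes), all 3 genes of vesicle membrane or membrane retrieval. None of the 77 passed an adjusted p of 0.05 in edgeR in any of the 3 comparisons. DESeq2 called 7 higher and 9 lower in Alt against Ctr and none in the other 2. Of the genes it gave an adjusted p, 8.5% passed in Alt against Ctr. The shares were 3.82% in Alt against Ref and 0.0551% in Ref against Ctr.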

How the data were processed

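RNA-seq libraries of the PFC (3 Ctr, 2 Ref and 2 Alt) were grouped by their labels. Poly(A) RNA was enriched, and submitters' processing notes name STAR and featureCounts without versions. Those notes name the human build hg19, while the table lists mouse Ensembl genes, so gene positions are quoted from the table, with no build assigned; they do not match the GRCm38.p6 positions of the promoter windows. The authors deposited raw counts per gene, with TPM and FPKM that they computed from these counts, and the gene length in bases they used.

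From the counts, edgeR 4.0.16 in R 4.3.3 computed TMM-normalized CPM, filterByExpr by group and quasi-likelihood tests (glmQLFit, glmQLFTest) on all 7 libraries, adjusted by the Benjamini-Hochberg method over 17254 genes. FPKM values served to compare genes, and TPM was not used. DESeq2 1.42.0 was an alternative, as were other size factors, no low-count filter, a replicate block, a length correction (a loess curve of span 0.3 per library, as offsets), fits of 2 groups and leaving out each library. Libraries held 16655697 to 20750857 counts. Replicates differed by more than counting error (chi-square of 18.2 to 56.3 per degree of freedom), so the spread between libraries, not depth, limits the precision of genes with many counts.

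The 45 genes, their 6 roles, the 79 other vesicle genes and the 11 marker lists were chosen with earlier results of these data known. Values in every library are given for the 8 genes with the smallest p in each pairwise comparison and the gene with the highest FPKM in each role; some others are named with fewer values. In GENCODE M21, matched by Ensembl identifier, 9 of the 45 genes share at least 5% of their exon bases with another gene; of these Syn3, Syt4, Syp, Rab3b, Ppfia2, Erc1 and Doc2b are named in the text. The pipeline was tested on simulated data.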

Additional observations from a re-analysis of the deposited data

Results flagged for a closer look

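In CPM, Napb and Syt4 had both Ref libraries below every Ctr library and both Alt libraries above every Ctr library. The libraries of the 2 alleles thus lay on opposite sides of the same controls on that scale. In FPKM Napb had 97.6 in Alt replicate 2, below the Ctr span of 98.2 to 102.5. Syt4 had 96.03 and 99.99 FPKM in Alt, within the Ctr span of 91 to 104.4. The share of all genes tested with this ordering was not counted. Taken singly, 16.8% had Alt above Ctr without overlap and 10.5% had Ref below Ctr. The tested difference between Alt and Ref was a log2FC of 0.49 for Napb (adjusted p = 0.241 by edgeR's quasi-likelihood test with Benjamini-Hochberg adjustment) and 0.51 for Syt4 (adjusted p = 0.236), which does not pass 0.05 for either gene. For Syt4 the distance of Alt above Ctr was small (log2FC 0.10, SE 0.14), and for Napb it was 0.29 (SE 0.15). The exons of Syt4 share 14.5% of their bases with an antisense gene of 20 counts in all 7 libraries together. No group held enough libraries for a check of single outlying values.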

How the results depend on the processing

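The number of the 45 genes at an unadjusted p of 0.05 was 13 in Alt against Ctr, 16 in Alt against Ref, 4 in Ref against Ctr and 11 in the trend, and 0 at an adjusted p of 0.05 in each. Leaving out 1 library gave 2 to 26, 4 to 23, 2 to 8 and 3 to 17 genes in that order. At an adjusted p of 0.05 the ranges were 0 to 17, 0 to 16, 0 to 0 and 0 to 0. At an adjusted p of 0.05 DESeq2 called 7, 6 and 5 genes in Alt against Ctr, Alt against Ref and the trend. Of the genes it gave an adjusted p, 8.5%, 3.82% and 5.31% passed. EdgeR without a low-count filter called 10, 5 and 6, beside 5.52%, 3.16% and 4.22% of all genes in that fit. DESeq2 run on protein-coding genes with groups scored as numbers called 5 in the trend at an adjusted p of 0.05. In that fit 572 of 21885 genes passed. The gene length correction gave 9 in Ref against Ctr at an unadjusted p of 0.05. Of these 2 were higher and 7 lower, beside 1.92% and 3.23% of all genes. The cause of these changes was not tested. The correlations of deviations between libraries of the same replicate number lay between -0.0984 and 0.0702. In Ref and in Alt the deviations of the 2 libraries from their group mean mirror each other. These values therefore cannot show whether the replicate numbers pair the libraries. With the replicate number as a block, 10 genes were called in Alt against Ref, for which the share of all genes was not counted. The median log2FC of the 45 genes there was 0.11, beside -0.06 over all genes. Dnm1 turned to 0.0881 in Alt against Ctr with the block, and the other counts stayed within 1.5 times.

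Among single genes, 473 of 533 values under an alternative kept their direction and side of the adjusted threshold, 50 passed it and 10 reversed. The reversed values lay near 0: Sv2c without Alt replicate 1 (-0.0148), Syn1 without Ctr replicate 2 (-0.00803) or Alt replicate 2 (-0.0832), Unc13b in Alt against Ref with the length correction (-0.0154), and Dnm1 with DESeq2 (0.0163), other size factors (0.0162) and without Ctr replicate 1 (0.0121), Ctr replicate 3 (0.0801) or Alt replicate 1 (0.0804). Over all 7 libraries left out, Alt against Ctr ran from -0.0148 to 2.11 for Sv2c, from -0.0832 to 0.192 for Syn1 and from -0.104 to 0.0804 for Dnm1. Ref and Alt have 2 libraries each, so leaving out either leaves 1, which is assumed to vary like the other groups, and genes of few counts such as Slc17a8 (13 to 53 counts per library) had wide intervals.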
